A study of Homo sapiens with 12 samples.

Results

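SUDHL6 is a human diffuse large B-cell lymphoma (DLBCL) cell line of the germinal centre B-cell type with translocations of BCL2 and MYC. The venetoclax-resistant line derived from it was compared with the parental line across all genes. The comparison took the 6 libraries, of 12 in the series, whose labels name the cell line as SUDHL6-parental (CE-7, CE-8 and CE-9) or SUDHL6-resistant (CE-10, CE-11 and CE-12). Parental cells came untreated from a cell bank, and the resistant cells had been exposed for months to rising concentrations of venetoclax (ABT-199) until they grew at 10 times the original IC50. The study kept the resistant line in venetoclax and moved cells to fresh medium for experiments, and whether drug was present when the RNA was taken is not given in the sources used here. The resistant cells are 1 selected line, and nothing in the labels says that the 3 libraries of a group came from separate cultures, so the p-values measure the spread between these libraries, which may be technical. The other 6 libraries are parental and resistant SUDHL16, a second DLBCL line.

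Venetoclax occupies the groove of BCL2 that normally holds the death-promoting BH3 proteins, such as BIM, which are then free to open the outer mitochondrial membrane through BAX and BAK. The other guardians of the family, MCL1, BCL-XL, BCL-W and BFL1, bind the same BH3 proteins and are not blocked by the drug. Germinal centre B cells are further known for the repressor BCL6 and the surface enzyme CD10, and they lose this programme when NF-κB and IRF4 turn them towards plasma cells.

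Between 33992784 and 40885665 reads were counted on genes in the parental libraries and between 36212755 and 40298116 in the resistant libraries. Mitochondrial genes took 5.60% to 5.61% of the counts in parental and 6.34% to 6.63% in resistant libraries, and the part of this difference in the results was not tested. The biological coefficient of variation, edgeR's measure of the spread between libraries of a group, was 0.0516. Markers of other cells were at or near 0. Of 14 markers of T and NK cells, 6 had no read in any library and the summed level was 3.30 to 4.35 CPM (counts corrected for sequencing depth) in parental and 4.16 to 4.60 CPM in resistant libraries. The 12 myeloid markers, 7 of them without a read, summed to 0.325 to 0.639 and 0.696 to 0.936 CPM. The 12 stromal and epithelial markers summed to 1.70 to 2.58 and 1.68 to 3.78 CPM.

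Markers of B cells were present in all 6 libraries. MS4A1, which encodes the surface protein CD20, was at 1849 ± 23.8 CPM before and 2139 ± 18.5 CPM after selection (mean ± SD with n = 3 in either group, as for all means below), and PAX5, the B-cell identity factor, at 319 ± 2.61 and 310 ± 1.63 CPM. CD79A, CD79B and CD22 were also above 300 CPM in all 6 libraries. Of the germinal centre markers, BCL6 was at 177 ± 5.86 and 261 ± 2.06 CPM and S1PR2 at 124 ± 4.82 and 156 ± 2.79 CPM, but SERPINA9 was under 1.5 CPM in each library. Of the plasma cell markers, PRDM1 failed the filter on low counts and SDC1 was at 2.63 ± 0.485 and 2.29 ± 0.292 CPM. JCHAIN, the remaining plasma cell marker, was abundant in both groups, with its values given below. In such bulk RNA, fewer cells that express a gene and less RNA of it per cell cannot be told apart.

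The quasi-likelihood test of edgeR, two-sided, was run on the counts, and a gene was called raised or lowered where its p, adjusted by Benjamini-Hochberg, was under 0.05 and its level differed by 1.5-fold or more (0.58 on the log2 scale). Of 16662 genes tested, 718 (4.31%) were raised and 775 (4.65%) lowered in resistant cells, 1493 (8.96%) in all. The replicates were so close that 6223 genes (37.3%) passed the adjusted p alone, and in 7982 genes (47.9%) the 3 resistant libraries did not overlap the 3 parental ones, so the size of a change says more here than its p. Among the called genes the median size of the change was 0.98 on the log2 scale, 77 genes rose and 97 fell by at least 4-fold, and 375 (25.1%) had a mean under 1 CPM. Protein-coding genes made up 544 of the raised and 573 of the lowered genes, and long non-coding RNAs 104 and 136. In one fit with the SUDHL16 libraries, whose coefficient of variation was 0.468, only 59 raised and 81 lowered genes were called in SUDHL6. A test against a change of 1.5-fold itself called 246 and 342.

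GRAMD1B, which moves cholesterol from the plasma membrane to the endoplasmic reticulum, lies on chromosome 11 (GRCh38, 123358428 to 123627774, plus strand). It was at 0.617, 1.18 and 0.614 CPM in CE-7, CE-8 and CE-9 and at 14.9, 15.1 and 15.9 CPM in CE-10, CE-11 and CE-12, the order kept throughout. All resistant libraries stood far above the parental ones, and the change of 4.26 on the log2 scale (standard error 0.17, adjusted p = 1.49e-09) was the highest among protein-coding genes averaging 5 CPM or more whose groups did not overlap. NIBAN1, a stress-induced protein also known as FAM129A, was at 2.56, 1.59 and 1.45 CPM in parental and 11.9, 13.2 and 12 CPM in resistant libraries (log2 fold change 2.74, standard error 0.16, adjusted p = 5.48e-08). GCA, the calcium-binding protein grancalcin, went from 1.64, 1.59 and 1.5 to 9.12, 8.81 and 8.87 CPM (log2 fold change 2.50). NOXA1, an activating subunit of the NADPH oxidase NOX1 and unrelated to the BH3 protein NOXA, rose by 2.44 on the log2 scale, from 1.93 ± 0.497 to 10.6 ± 0.825 CPM. VAMP7, a SNARE protein of vesicle fusion, went from 15.6, 14.2 and 15.6 to 67.5, 71.5 and 69.6 CPM (log2 fold change 2.2, standard error 0.05, adjusted p = 8.25e-12). CREB5, a transcription factor of the CREB family, was at 9.96, 10.2 and 9.27 CPM in parental and 39.4, 40.4 and 40.4 CPM in resistant libraries (log2 fold change 2.03). PLEKHA4, SCCPDH, the protease inhibitor SPINK2, the antiviral enzyme OAS2 and the RNA-binding protein RBM41 rose by 2.02 to 2.30.

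One further identifier reached that list, ENSG00000268173 on chromosome 19, with a log2 fold change of 3.12. It overlaps PIK3R2 and IFI30 on the same strand and its counts did not behave like those of the other leading genes, at 223, 28 and 1722 in parental and 2224, 7951 and 7508 in resistant libraries. PIK3R2, a regulatory subunit of PI3-kinase, had 1718, 1917 and 1528 counts against 1142, 345 and 355 and was called lowered (log2 fold change −1.62, adjusted p = 0.00183). Libraries high in one were low in the other, so the division of reads between the overlapping genes is uncertain. The counts of the pair summed to 1941, 1945 and 3250 in parental and 3366, 8296 and 7863 in resistant libraries. Neither value is interpreted, but both genes stay in the figures and counts below.

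Of the lowered protein-coding genes averaging 5 CPM or more over the 6 libraries, without overlap between the groups, the largest fall was in ZNF275, a zinc finger gene of Xq28 (X, 153334147 to 153360110, plus strand). It was at 69.6, 72.2 and 74.2 CPM in parental and 3.06, 1.91 and 2.37 CPM in resistant libraries (log2 fold change −4.88, standard error 0.10, adjusted p = 4.48e-12). S100A10, the partner of annexin A2, went from 18.2, 17.8 and 16.3 to 1.04, 0.941 and 0.964 CPM (log2 fold change −4.14), and the secreted glycoprotein NELL2 from 12, 10.3 and 12.1 to 0.572, 0.520 and 0.881 CPM (log2 fold change −4.13). ZBTB38, which binds methylated DNA, was at 30, 27 and 26.2 against 2.06, 2.43 and 2.59 CPM (log2 fold change −3.55), and it overlaps PXYLP1 on the same strand. TOX, an HMG-box factor of lymphocytes, was at 44.3, 45.3 and 45.5 against 7.06, 7.01 and 7.63 CPM (log2 fold change −2.64, standard error 0.06, adjusted p = 1.17e-11). NCF4, the p40phox subunit of the phagocyte NADPH oxidase, was at 16.5, 15.4 and 17.9 against 3.11, 2.92 and 2.84 CPM (log2 fold change −2.49). The cadherin-related CDHR3, the fructose transporter SLC2A5, RASSF6, the pseudokinase TRIB1, the kinase WNK2 and the vesicle protein SV2B fell by −3.24 to −2.65. No parental library overlapped a resistant one in any of these genes, which the choice of genes required.

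**Figure D1:**
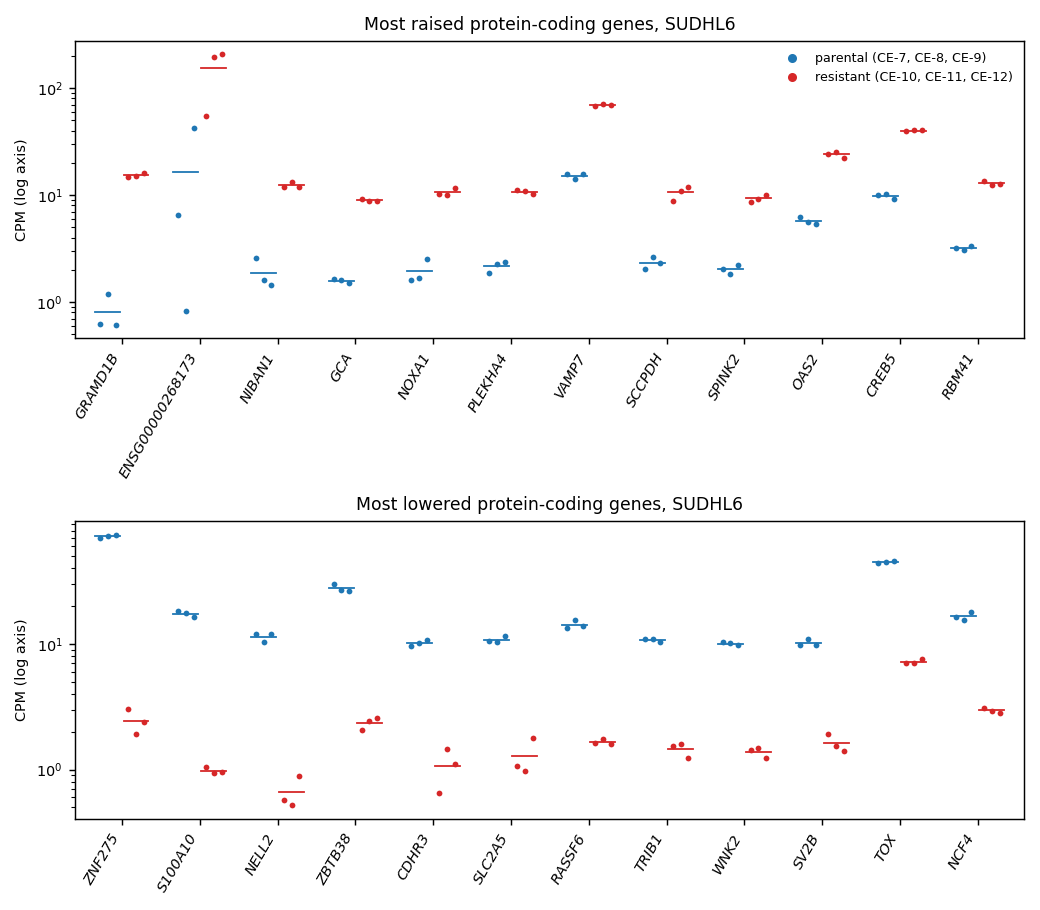
Level of the 12 most raised (top) and 12 most lowered (bottom) protein-coding genes in each SUDHL6 library, in CPM on a log axis, with points for libraries and lines for group means. The points of a group lie close together except for ENSG00000268173, which spans 0.826 to 42.3 CPM in parental and 55.3 to 207 CPM in resistant libraries.

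NOL4, a neuronal nucleolar protein gene on 18q (18, 33851100 to 34224952, minus strand), had reads in the parental libraries alone. It had 179, 186 and 213 reads in the parental libraries, or 5.33 ± 0.140 CPM, and no read in any resistant library. Against a floor of 3 counts in a resistant library, which is 0.0828 CPM and covers counting error only, it was at least 64.3-fold lower. No other protein-coding gene averaged 5 CPM or more in one line with no library of the other line above 3 counts, and 0 genes met this in the other direction.

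Measured as CPM, which also depends on transcript length, the largest rises were in ZNF318, a zinc finger protein known to shape the splicing of IgD in B cells (450 ± 4.46 to 978 ± 27.6 CPM), in MCL1, in the insulin receptor INSR (106, 107 and 111 to 235, 235 and 231 CPM, log2 fold change 1.12) and in SMIM14 (211 ± 1.25 to 329 ± 4.27 CPM), besides ENSG00000268173. The largest falls were in RPL10, a protein of the large ribosomal subunit (2841 ± 24.0 to 1454 ± 17.2 CPM, log2 fold change −0.97), the nuclear import receptor IPO5 (921 ± 12.7 to 467 ± 5.69 CPM), LDHB, LAPTM5 and PIM1. RPL10 has processed copies elsewhere in the genome, so its reads could have been split. LAPTM5, a lysosomal protein of blood cells that helps to degrade antigen receptors, was at 887, 869 and 871 against 553, 547 and 535 CPM (log2 fold change −0.68).

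In the BCL2 family, 1 of 5 tested guardians rose and 1 fell, and 3 of 14 tested death-promoting members fell while none was raised, against 4.31% raised and 4.65% lowered of all genes. Without CE-11, 1 death-promoting member, BIK, was called raised. MCL1 was at 530, 527 and 528 CPM in parental and at 931, 935 and 934 CPM in resistant libraries, a rise of 0.82 on the log2 scale (standard error 0.01, adjusted p = 1.85e-12). BCL2A1, which encodes BFL1 and is induced by NF-κB, went from 7.67, 7.32 and 6.83 to 2.14, 2.38 and 2.59 CPM (log2 fold change −1.62, standard error 0.12, adjusted p = 3.49e-07). The groups did not overlap in either gene. BCL2, the target of the drug, was at 363 ± 2.63 and 318 ± 1.06 CPM (log2 fold change −0.19), BCL2L1, which encodes BCL-XL, at 88.6 ± 1.06 and 78.9 ± 0.994 CPM (−0.17), and BCL2L2, which shares reads with a read-through gene, at 3.33 ± 0.399 and 2.67 ± 0.057 CPM (−0.32), all under the 1.5-fold limit. BCL2L10 failed the filter on low counts.

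Among the BH3-only proteins, which start the pathway, HRK went from 46.3, 43.1 and 42.4 to 17.2, 16.3 and 15.5 CPM (log2 fold change −1.42, standard error 0.06, adjusted p = 1.55e-09). BCL2L11, which encodes BIM, went from 66.1, 65.0 and 64.8 to 41.8, 42.6 and 39.7 CPM (log2 fold change −0.66, standard error 0.03, adjusted p = 1.34e-08). BBC3, which encodes PUMA, went from 7.14, 7.82 and 7.94 to 4.60, 4.13 and 4.24 CPM (log2 fold change −0.82, adjusted p = 3.73e-05). Each resistant library lay below each parental one in all 3 genes. PMAIP1, which encodes NOXA, was at 50.8 ± 2.57 and 37.1 ± 1.41 CPM (log2 fold change −0.45), BMF at 255 ± 3.49 and 288 ± 3.61 CPM (0.17), BIK at 4.92 ± 0.208 and 7.14 ± 0.759 CPM (0.53) and BAD at 13.2 ± 0.240 and 16.2 ± 1.95 CPM (0.29), none of them called. BID was at 16.8 ± 0.547 and 16.9 ± 0.851 CPM (log2 fold change 0.01, adjusted p = 0.949). Of the effectors that form the pore, BAX was at 89.1 ± 2.03 and 88.6 ± 5.15 CPM (log2 fold change −0.01, adjusted p = 0.890) and BAK1 at 49.3 ± 1.58 and 58.3 ± 0.325 CPM (0.24). Of 19 tested caspases, apoptosome parts and inhibitors of apoptosis, 3 were raised (15.8%, against 4.31% of all genes) and 0 lowered (against 4.65%). CFLAR, which encodes the caspase-8 inhibitor FLIP, rose from 1.73, 1.0 and 1.40 to 5.77, 5.89 and 4.85 CPM (log2 fold change 1.99, adjusted p = 2.29e-06) and CASP4 from 0.301 ± 0.0398 to 0.774 ± 0.213 CPM. Of 28 tested genes of the p53 pathway, BBC3, XPC and TIGAR were lowered and none was raised, with a median log2 fold change of −0.00 as over all genes.

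**Figure D2:**
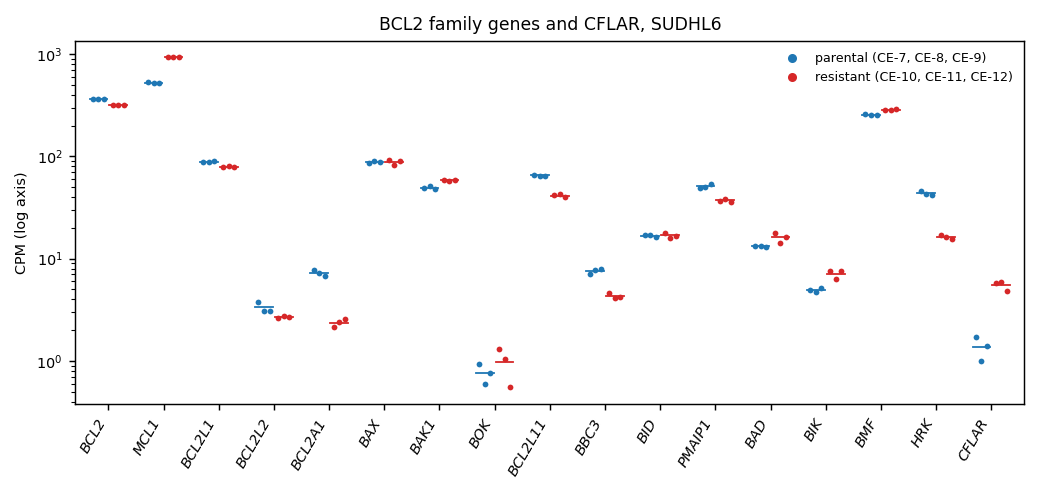
Level of BCL2 family genes and of CFLAR in each SUDHL6 library, in CPM on a log axis, with points for libraries and lines for group means. MCL1 lies higher in the resistant libraries, HRK, BCL2L11, BBC3 and BCL2A1 lie lower, and BAX overlaps between the groups.

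Lowered genes were the larger share of the calls in the NF-κB pathway list, which holds subunits and regulators as well as induced genes. Of 33 tested members of the NF-κB pathway list, 7 were lowered (21.2%, against 4.65% of all genes), 1 was raised and 25 were not called, with a median log2 fold change of −0.14 against −0.00 over all genes. CD83, a surface protein of activated B cells (6, 14117256 to 14136918, plus strand), was at 330, 317 and 331 CPM in parental and 109, 104 and 108 CPM in resistant libraries (log2 fold change −1.61, standard error 0.03, adjusted p = 1.85e-12). TNFAIP3, which encodes A20, the feedback inhibitor of the pathway, went from 42.6, 40.4 and 41.1 to 22.7, 22.4 and 23.2 CPM (log2 fold change −0.86), and the adhesion molecule ICAM1 from 81.4, 77.6 and 81.0 to 50.3, 48.6 and 51.5 CPM (−0.68). BCL2A1 was described above, and CD40, the receptor for T-cell help, was at 83.5 ± 1.90 and 55.5 ± 2.45 CPM (−0.59), close to the limit, so that it was not called with upper-quartile scaling or library totals or without CE-7, CE-10 or CE-11. The kinase scaffold IKBKG, which lies in Xq28 and has a near-identical pseudogene copy, and the chemokine CCL3 made up the 7, and CFLAR was the raised member.

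MIR155HG, the transcript from which the B-cell activation miRNA miR-155 is cut, fell with them (21, 25561810 to 25575168, plus strand). It was at 12.7, 13.1 and 12.9 CPM in parental and 2.73, 3.39 and 3.55 CPM in resistant libraries (log2 fold change −2.0, standard error 0.11, adjusted p = 1.73e-08). MIR17HG, the host of the miR-17-92 cluster, which MYC induces and whose miRNAs restrain BIM (13, 91347686 to 91397592, plus strand), went from 62.3, 59.9 and 61.6 to 16.7, 17.0 and 19.5 CPM (log2 fold change −1.79, standard error 0.05, adjusted p = 1.48e-10). These were the 2 most lowered of the called long non-coding RNAs with a mean of at least 5 CPM. MIR17HG lies in the lowered stretch of 13q described below and fell further than the protein-coding genes there. The libraries hold long RNA, so the levels of the mature miRNAs were not measured. Their guide strands, from RefSeq (GRCh38.p14), are shown with the seed, bases 2 to 8, in capitals, since the transcripts that carry them fell.
hsa-miR-155-5p: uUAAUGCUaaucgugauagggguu
hsa-miR-17-5p: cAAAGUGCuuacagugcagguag
hsa-miR-20a-5p: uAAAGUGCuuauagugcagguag
hsa-miR-18a-5p: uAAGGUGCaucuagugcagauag
hsa-miR-19a-3p: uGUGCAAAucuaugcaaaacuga
hsa-miR-19b-3p: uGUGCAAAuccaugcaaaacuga
hsa-miR-92a-3p: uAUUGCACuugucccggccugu
Within the cluster, miR-17-5p and miR-20a-5p share 1 seed and miR-19a-3p and miR-19b-3p another. The long non-coding RNAs LINC01224 and LINC02397 fell by 0.98 each, and those raised most were LINC00487 (1.67, 1.5 and 1.20 to 8.62, 9.36 and 8.95 CPM, log2 fold change 2.63), FBXL19-AS1, ENSG00000256982 and APPAT (1.05 to 1.31). FBXL19-AS1 overlaps FBXL19, and without knowledge of the strand setting their reads cannot be told apart.

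The programme of activated B cells and plasma cells had the largest share of lowered members of the lists with at least 15 tested genes. Of 27 tested members 9 were lowered (33.3%, against 4.65% of all genes), 1 was raised and 17 were not called. The median log2 fold change of the list was −0.25. IRF4, a factor that drives exit from the germinal centre, went from 368, 368 and 363 to 192, 195 and 195 CPM (log2 fold change −0.92, standard error 0.02, adjusted p = 7.91e-12). JCHAIN, the joining chain of IgM and IgA, went from 467, 470 and 465 to 243, 247 and 246 CPM (−0.93), and the kinase PIM1 from 498, 481 and 493 to 269, 260 and 265 CPM (−0.89). XBP1, the master factor of secretory cells, was among the lowered members, as were SSR4 of the translocon, PIM2, DERL3, LIMD1 and CCND2, of which SSR4 and CCND2 lie in windows on X and 12 described below. CCND2 was at most 1.0 CPM in any library and lost its call without CE-8 (−0.90, adjusted p = 0.122), CE-10 (adjusted p = 0.0577) or CE-11 (adjusted p = 0.0674). ENTPD1, the ectonucleotidase CD39, rose from 12.8 ± 0.405 to 20.1 ± 0.655 CPM. The folding machinery of the endoplasmic reticulum, which serves secretion, had 5 of 31 tested members lowered (16.1%), none raised and 3 higher in resistant cells. The chaperone HSP90B1, or GRP94, went from 288, 295 and 290 to 143, 147 and 150 CPM (log2 fold change −0.99, standard error 0.02, adjusted p = 1.56e-11), the co-chaperone DNAJC3 from 84.0 ± 1.76 to 50.5 ± 0.593 CPM and the stress sensor EIF2AK3, or PERK, from 81.3 ± 1.23 to 50.7 ± 2.04 CPM.

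Of 30 tested germinal centre genes, 4 were raised (13.3%, against 4.31% of all genes) and 3 lowered (10.0%, against 4.65%), with a median of −0.00. LMO2, a defining gene of germinal centre lymphoma, rose from 8.34, 6.99 and 5.97 to 25.8, 25.8 and 25.6 CPM (log2 fold change 1.86, standard error 0.10, adjusted p = 1.5e-08). MYBL1, a factor of germinal centre B cells, rose from 116, 115 and 117 to 227, 231 and 227 CPM (0.98) and MEF2C from 3.21 ± 0.388 to 7.70 ± 0.527 CPM. BCL6 was higher by 0.56, just under the limit, and was called when CE-7 was left out (0.59). MME, which encodes CD10, fell from 109, 109 and 107 to 50.9, 56.3 and 53.2 CPM (log2 fold change −1.02, standard error 0.03, adjusted p = 3.92e-10) and BACH2, which holds B cells back from plasma cell fate, from 97.6 ± 2.19 to 60.9 ± 1.76 CPM. Of the 27 B-cell identity genes CD24 (333 ± 6.21 to 174 ± 3.70 CPM), BACH2 and CD40 were lowered and the complement receptor CR2 was raised (0.625 ± 0.116 to 2.33 ± 0.215 CPM).

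B-cell receptor signalling had 3 raised and 3 lowered of 37 tested members (8.11% each), against 4.31% raised and 4.65% lowered of all genes. SYK, a kinase which relays the signal from the receptor and is needed for it, was at 201, 196 and 201 CPM in parental and 91.3, 92.3 and 87.3 CPM in resistant libraries (log2 fold change −1.14, standard error 0.03, adjusted p = 1.56e-11). NFATC1, a target factor of calcium signalling on 18q, went from 63.7, 63.6 and 63.6 to 35.4, 35.4 and 35.6 CPM (−0.84), and the phosphatase PTPN6, or SHP-1, on 12p from 88.3, 89.9 and 82.7 to 58.1, 50.5 and 54.1 CPM (−0.68). CD79B, a receptor chain, was at 457 ± 3.73 and 347 ± 3.61 CPM (−0.40, not called). The activator RASGRP1 (3.83 ± 0.502 to 8.53 ± 1.12 CPM), the inhibitory receptor LILRB1 (29.3 ± 2.22 to 45 ± 0.555 CPM) and CR2 were raised. Of the immediate early genes that the receptor induces, EGR2 and EGR3 were lowered (−0.80 and −1.27), 6.9% of the 29 tested, and none was raised. The PI3-kinase, AKT and mTOR list had 1 raised and 1 lowered of 39, SESN3 and the uncertain PIK3R2. At 2.56% each, these lay below the shares of all genes.

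**Figure D3:**
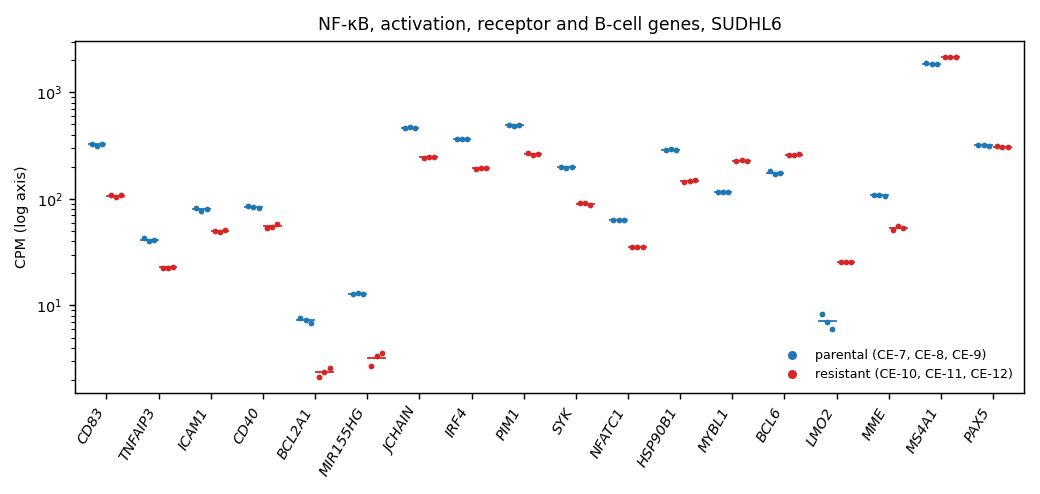
Level of genes of NF-κB, activation, receptor signalling and B-cell identity in each SUDHL6 library, in CPM on a log axis, with points for libraries and lines for group means. CD83, IRF4, JCHAIN, PIM1, SYK and MIR155HG lie lower in all resistant libraries and LMO2 and MYBL1 higher, whereas PAX5 averages 319 and 310 CPM.

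Interferon-stimulated genes gave the largest share of raised members among the lists with at least 15 tested genes, 13 of 55 (23.6%, against 4.31% of all genes), with 3 lowered and a median log2 fold change of 0.30. The largest by p were the antiviral adaptor TRIM14 (14.2, 12.4 and 13.1 to 44.9, 42.2 and 43.1 CPM, log2 fold change 1.71), OAS2 (6.20, 5.55 and 5.41 to 24.3, 25.4 and 22.1 CPM, 2.07) and the cytidine deaminase APOBEC3G (58.7 ± 1.79 to 88.9 ± 2.68 CPM, 0.60). EIF2AK2, the RNA-sensing kinase PKR, rose from 6.08, 5.58 and 7.01 to 16.7, 17.4 and 16.4 CPM (1.43, adjusted p = 7.51e-08). Tetherin, encoded by BST2, went the other way, from 93.8, 86.7 and 91.6 to 53.5, 51.4 and 50.6 CPM (−0.81), as did APOL6 (−0.89) and the feedback inhibitor SOCS1 (−1.01). The interferon list has 77 members, and those that failed the filter on low counts include IFIT1, IFIT3, IFI44L, RSAD2 and GBP1. None of these exceeded 21 counts in a SUDHL6 library. Of the 19 tested HLA class I presentation genes 3 were raised and 0 lowered, the peptide trimmer ERAP2 (14.2, 11.6 and 14.3 to 42.9, 42.3 and 42.2 CPM, 1.67) and the immunoproteasome subunits PSMB9 (7.41 ± 0.506 to 15.7 ± 0.920 CPM) and PSMB8 (17.6 ± 0.737 to 29.4 ± 0.445 CPM). PSMB8 and PSMB9 overlap each other and PSMB8-AS1. The class II list had 0 of 17 called in each direction, with a median of −0.15 and 3 members higher in resistant cells, and 8.96% of all genes were called.

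The 300 bases around the gene starts, 250 before and 50 after as RefSeq places them, were searched on both strands for GAAA, any 2 bases and GAAA, the core of the interferon-stimulated response element, and for GGGA, any 2 bases and TTCC, a core of κB sites. The first was found in 1255 of 35116 promoter windows (3.57%) and the second in 564 (1.61%), and over tested genes 3.92% and 2.12% had a match in at least 1 window. Of 11 raised interferon-stimulated genes with a window, 6 held the interferon core, as did 14 of 29 that were tested and not called and both of 2 lowered ones, BST2 and SOCS1. Of 6 lowered NF-κB pathway genes with a window, CD83 and TNFAIP3 held the κB core, as did 9 of 20 that were not called. A match describes letters in the window and not a site in use. The promoters of 2 raised genes with the interferon core and 2 lowered genes with the κB core are shown on the strand of the gene, with the matches in capitals.
TRIM14, GRCh38.p14, chr9:98119173-98119472, minus strand: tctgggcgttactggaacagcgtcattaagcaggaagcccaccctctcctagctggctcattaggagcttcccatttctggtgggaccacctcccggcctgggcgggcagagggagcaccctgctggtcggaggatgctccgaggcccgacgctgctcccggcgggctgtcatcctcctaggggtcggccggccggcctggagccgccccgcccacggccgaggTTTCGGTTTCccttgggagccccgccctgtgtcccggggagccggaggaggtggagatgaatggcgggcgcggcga
EIF2AK2, GRCh38.p14, chr2:37156931-37157230, minus strand: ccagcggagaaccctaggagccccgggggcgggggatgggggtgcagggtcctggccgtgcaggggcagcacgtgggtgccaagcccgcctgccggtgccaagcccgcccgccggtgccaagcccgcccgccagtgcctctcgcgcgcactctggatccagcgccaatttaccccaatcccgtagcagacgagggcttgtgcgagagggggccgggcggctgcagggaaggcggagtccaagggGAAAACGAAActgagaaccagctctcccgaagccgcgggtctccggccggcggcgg
CD83, GRCh38.p14, chr6:14117522-14117821, plus strand: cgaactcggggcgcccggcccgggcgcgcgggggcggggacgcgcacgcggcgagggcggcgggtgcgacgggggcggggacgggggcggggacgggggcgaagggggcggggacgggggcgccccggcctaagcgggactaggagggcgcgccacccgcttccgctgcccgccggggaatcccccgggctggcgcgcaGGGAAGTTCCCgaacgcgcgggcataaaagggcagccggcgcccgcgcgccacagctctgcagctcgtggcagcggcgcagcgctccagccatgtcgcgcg
TNFAIP3, GRCh38.p14, chr6:137867009-137867308, plus strand: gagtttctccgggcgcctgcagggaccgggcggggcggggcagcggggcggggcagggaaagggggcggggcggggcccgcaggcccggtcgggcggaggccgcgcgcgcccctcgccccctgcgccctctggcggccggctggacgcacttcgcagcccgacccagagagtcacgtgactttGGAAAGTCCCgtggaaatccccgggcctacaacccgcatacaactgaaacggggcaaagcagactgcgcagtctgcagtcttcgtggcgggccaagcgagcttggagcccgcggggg
The CD83 window holds 2 matches that overlap, and it belongs to the second of the RefSeq starts of that gene.

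Signalling lists outside the B-cell pathways held some of the larger changes. Of 38 tested genes of the Notch and Wnt list 8 were lowered (21.1%, against 4.65% of all genes) and 1 raised. WNT3, a Wnt ligand, fell from 15.1, 14.9 and 15.1 to 3.11, 3.37 and 3.63 CPM (log2 fold change −2.16, standard error 0.09, adjusted p = 1.85e-09), while the ligand WNT10A rose from 18.4 ± 1.24 to 40.3 ± 0.556 CPM (1.13). TCF4, on 18q, was counted among the lowered members and fell from 5.31 ± 0.318 to 1.31 ± 0.407 CPM (−2.01). This gene encodes the factor E2-2 and is not TCF7L2, the Wnt effector that is also called TCF-4. The receptor NOTCH1 and the Notch targets HES1, HEY1 and NRARP were among the lowered members. In the TGF-β and BMP list 4 of 28 were raised (14.3%, against 4.31%) and 5 lowered (17.9%, against 4.65%), and the lowered count fell to 3 without CE-7 and to 2 without CE-12. The receptor TGFBR2 (28.9, 29.2 and 28.8 to 51.4, 52.3 and 49.9 CPM, 0.82) and the differentiation inhibitors ID1 (5.55 ± 0.517 to 16.2 ± 1.49 CPM, 1.55) and ID2 (6.60 ± 0.813 to 15.9 ± 0.933 CPM, 1.27) rose, and the BMP mediator SMAD1 (2.70, 2.60 and 2.46 to 0.398, 0.347 and 0.248 CPM, −2.94) and the common mediator SMAD4, on 18q (73.2 ± 2.45 to 48.0 ± 2.64 CPM, −0.61), fell. SMAD4 and the co-repressor SKI lay at the 1.5-fold limit, and each lost its call when single libraries were left out.

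Surface receptors of B-cell traffic and co-stimulation were called in both directions, against 4.31% raised and 4.65% lowered of all genes. Of 24 tested checkpoint and co-stimulation genes 4 were raised and 5 lowered, of 19 homing receptors 2 and 3, and of 29 integrin and adhesion genes 5 and 2. Without CE-12 the raised checkpoint genes were 2, and TNFRSF14 was among those lost (adjusted p = 0.0679), and without CE-7 or CE-9 1 adhesion gene was lowered. The inhibitory receptor CD200R1 (5.70 ± 0.501 to 2.64 ± 0.1 CPM) and the ICOS ligand ICOSLG (22.4 ± 0.323 to 13.9 ± 1.08 CPM) were lowered, and the 4-1BB ligand TNFSF9 (23 ± 0.770 to 36.5 ± 0.489 CPM) was raised. CCR7, which guides cells to lymph node T zones, went from 1.61 ± 0.371 to 0.414 ± 0.0952 CPM and CCR10 from 2.51 ± 0.496 to 6.39 ± 0.563 CPM. GPR18 rose (3.96 ± 0.216 to 9.72 ± 0.313 CPM) and its neighbour GPR183 fell (0.742 ± 0.245 to 0.255 ± 0.0389 CPM) on 13q, both inside UBAC2. The actin linker VCL rose from 101, 97.9 and 104 to 186, 185 and 181 CPM (log2 fold change 0.87, adjusted p = 1.47e-10). Of 31 cytokine receptor and JAK-STAT genes 2 were raised, among them JAK3 (19.9 ± 1.24 to 34.0 ± 1.96 CPM), and 3 lowered, among them the interleukin 2 receptor chain IL2RA (1.85 ± 0.154 to 0.448 ± 0.312 CPM).

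Among metabolic genes, ABCA1, which exports cholesterol from the cell, fell from 39.9, 39.5 and 38.0 to 10.7, 10.3 and 11.5 CPM (log2 fold change −1.85, standard error 0.06, adjusted p = 1.98e-10). CPT1A, the gate of mitochondrial fatty acid oxidation, fell from 32.2, 31.2 and 31.8 to 14.1, 12.9 and 14.2 CPM (−1.21, adjusted p = 8.65e-09). Over all genes 4.31% were raised and 4.65% lowered. Of 41 genes of the cholesterol and fatty acid synthesis list 3 were lowered (7.32%) and 0 raised. The 3 were FADS1, NSDHL of Xq28 and ABCA1, which is an exporter and not a synthesis enzyme. Of 30 fatty acid oxidation genes 1 was lowered and 1 raised (CPT1A and ACADS, 3.33% each). Of 29 genes of the glycolysis list 3 were lowered (10.3%) and 1 raised (3.45%). That list holds regulators as well as enzymes. ENO2 (22.4 ± 1.12 to 7.83 ± 1.03 CPM, −1.51), LDHB (1041, 1069 and 1079 to 698, 675 and 702 CPM, −0.62) and the regulator TIGAR, its lowered members, all lie in lowered windows of chromosome 12. ENO2 overlaps LRRC23 on the same strand. The oxidase subunit CYBB, or gp91phox, fell from 126 ± 2.24 to 76.2 ± 1.24 CPM (−0.72), and it and its partner NCF4 were the 2 genes called of 7 tested in the NADPH oxidase list. Without CE-7, 1 member of that list was called raised. NOXA1, raised as given above, is not on the list. Of 37 redox defence genes 4 were raised and 2 lowered, with the cystine transporter SLC7A11 (20.1, 19.8 and 19.9 to 31, 30.4 and 30.5 CPM, 0.62) and NQO2 (49.9 ± 3.13 to 86.1 ± 2.49 CPM, 0.79) raised. Among ABC transporters, which include drug pumps, 1 was raised (ABCB6) and 3 were lowered of 22 tested, ABCA1 and ABCC4 among them. HSPB1, the small heat shock protein HSP27, rose from 6.84, 5.52 and 7.30 to 20.3, 20.4 and 18.3 CPM (1.58, adjusted p = 7.00e-08), the only call of 24 heat shock chaperones.

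Genes of DNA replication and mitosis differed by small amounts. Of 43 tested DNA replication genes 39 were not higher, the median log2 fold change was −0.19 and 36 at an adjusted p under 0.05, but only MCM5, a subunit of the replicative helicase, was called (264, 263 and 266 to 175, 174 and 173 CPM, −0.60), and it was not with upper-quartile scaling (−0.58). Of 46 mitosis and spindle genes 40 were higher, with a median of 0.15, and only the kinetochore gene NDC80, on 18p, was called (37.7 ± 1.88 to 71.4 ± 1.48 CPM, 0.92). Of 25 tested G1 cyclins, kinases and inhibitors 2 were raised (8%, against 4.31% of all genes) and 1 lowered (4%, against 4.65%). CDKN2D (1.09) and CCND1 (1.11) rose, and CCND2 (−1.28) fell with the limits given above. Lists of MYC network and nucleolar targets (1 of 37 called), chromatin regulators (2 of 37), serine, glycine and one-carbon metabolism (0 of 29), and lysosome and autophagy (2 of 37) were called at or below the 8.96% of all genes.

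**Figure D4:**
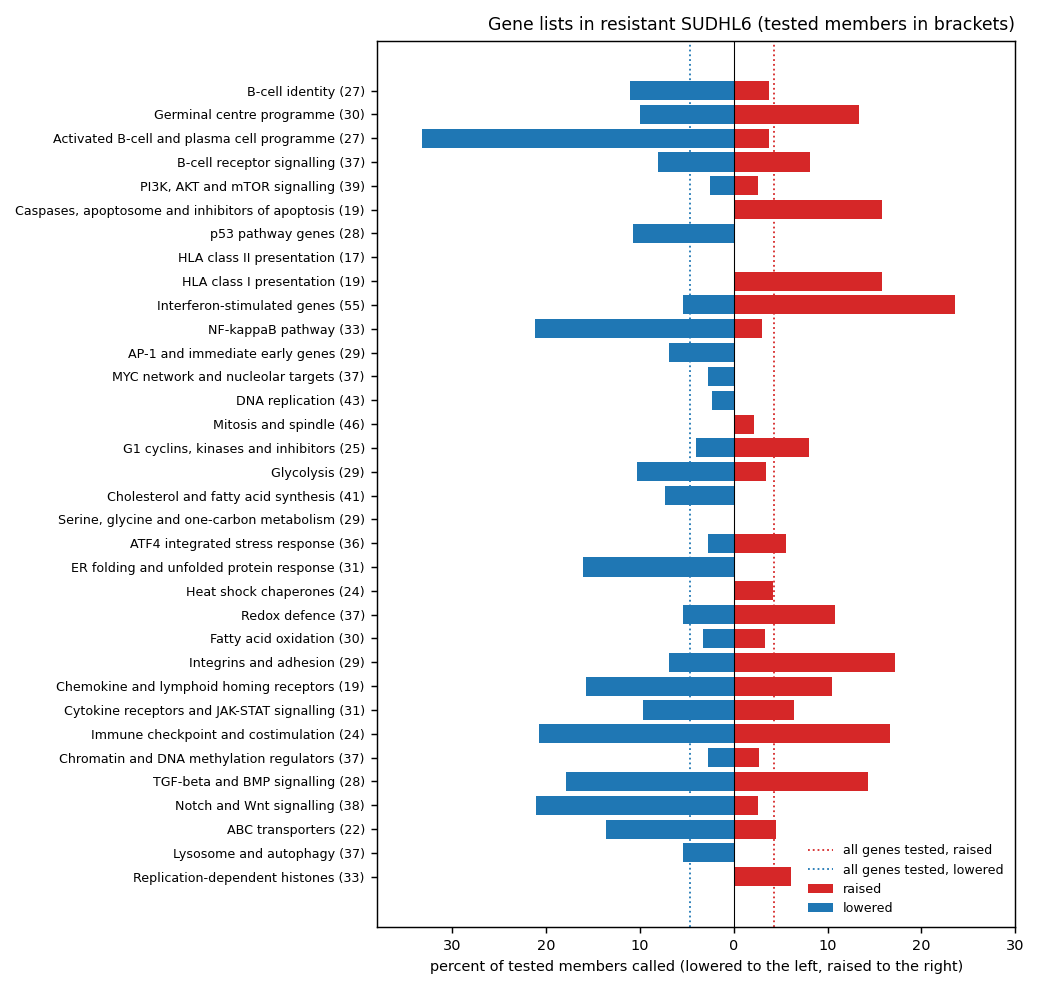
Percent of the tested members of each gene list with at least 15 tested genes that were raised (right, red) or lowered (left, blue) in resistant SUDHL6, with the shares over all genes tested as dotted lines at 4.31% and 4.65%. The longest bar to the left is the activated B-cell and plasma cell programme at 33.3% and the longest to the right the interferon-stimulated genes at 23.6%.

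Part of the difference between the lines followed the chromosomes. Protein-coding genes averaging 5 CPM or more were placed in windows of 10 Mb, of which 285 held at least 8 genes. In this set 3.09% of 9462 genes were lowered and 2.2% raised, and the median log2 fold change was −0.01. In 13 windows the median was at least 0.3 away from that, 2 of them higher and 11 lower, and all lay on chromosomes 12, 13, 18 and X. They held 3.02% of the tested genes, 19.7% of the lowered genes (153 of 775) and 5.29% of the raised genes (38 of 718), so most calls lay outside. The number of copies of these regions was not measured here. The stretches named below were bounded after their values were seen.

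One such stretch was on Xq28. From CETN2, a centriole protein, to RAB39B (X, 152826994 to 155264491) all 36 such genes were lower in resistant cells and 32 of them were lowered (88.9%), with a median of −0.80. Their levels summed to 6272, 6204 and 6321 CPM in parental and 3590, 3543 and 3546 CPM in resistant libraries. On the side towards the centromere, the 11 genes from FMR1 to VMA21 had a median of −0.02 and 0 were called. Within the stretch CETN2 changed by −1.21, the sterol enzyme NSDHL by −1.32 (71.6, 70.1 and 76.5 to 29.8, 29.4 and 28.4 CPM), the pseudouridine synthase DKC1 by −0.74 (268, 262 and 262 to 158, 160 and 158 CPM) and RPL10 by −0.97, while the transcriptional co-regulator HCFC1 (−0.29) and the actin crosslinker FLNA (−0.16) changed less. Past RAB39B, towards the tip, F8A3, which has near-identical copies and is uncertain, was lowered (−0.606), and the next genes, TMLHE and VAMP7, were raised. TMLHE, the first enzyme of carnitine synthesis, rose from 4.11, 3.25 and 3.51 to 12.6, 11 and 12 CPM (1.71), and VAMP7 rose by 2.2 as given above. WASH6P, the last gene, was at −0.094 and not called. VAMP7 lies in a pseudoautosomal region, with a matching copy on the Y chromosome in the reference.

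Chromosome 18 was split at the centromere. The 33 genes of 18p from USP14 to ZNF519 (18, 158383 to 14132490) were all at or above 0, with a median of 0.61 and 19 raised (57.6%), and their levels summed to 1212, 1222 and 1199 CPM against 1905, 1930 and 1910 CPM. On 18q, from ROCK1 to ADNP2, 84 of 90 genes were lower, with a median of −0.40 and 26 lowered (28.9%). The 12 genes from MAPRE2 to KIAA1328 (18, 34976928 to 37232172) were all lowered, with a median of −0.87, and NOL4, which lost all reads, lies just before them. BCL2 and PMAIP1, SMAD4, NFATC1 and TCF4 lie on this arm in the reference, and the change of −0.19 in BCL2 was smaller than the median of the arm. SUDHL6 has a translocation of BCL2, so BCL2 reads may not come from this arm, which was not tested. On chromosome 12, from KDM5A to YARS2 (280057 to 32755897), 100 of 107 genes were lower, with a median of −0.42 and 28 lowered, and on chromosome 13, from MZT1 to TMTC4 (72708367 to 100675093), 32 of 33 were lower, with a median of −0.65 and 19 lowered, IPO5 among them (930, 927 and 907 to 461, 472 and 468 CPM).

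**Figure D5:**
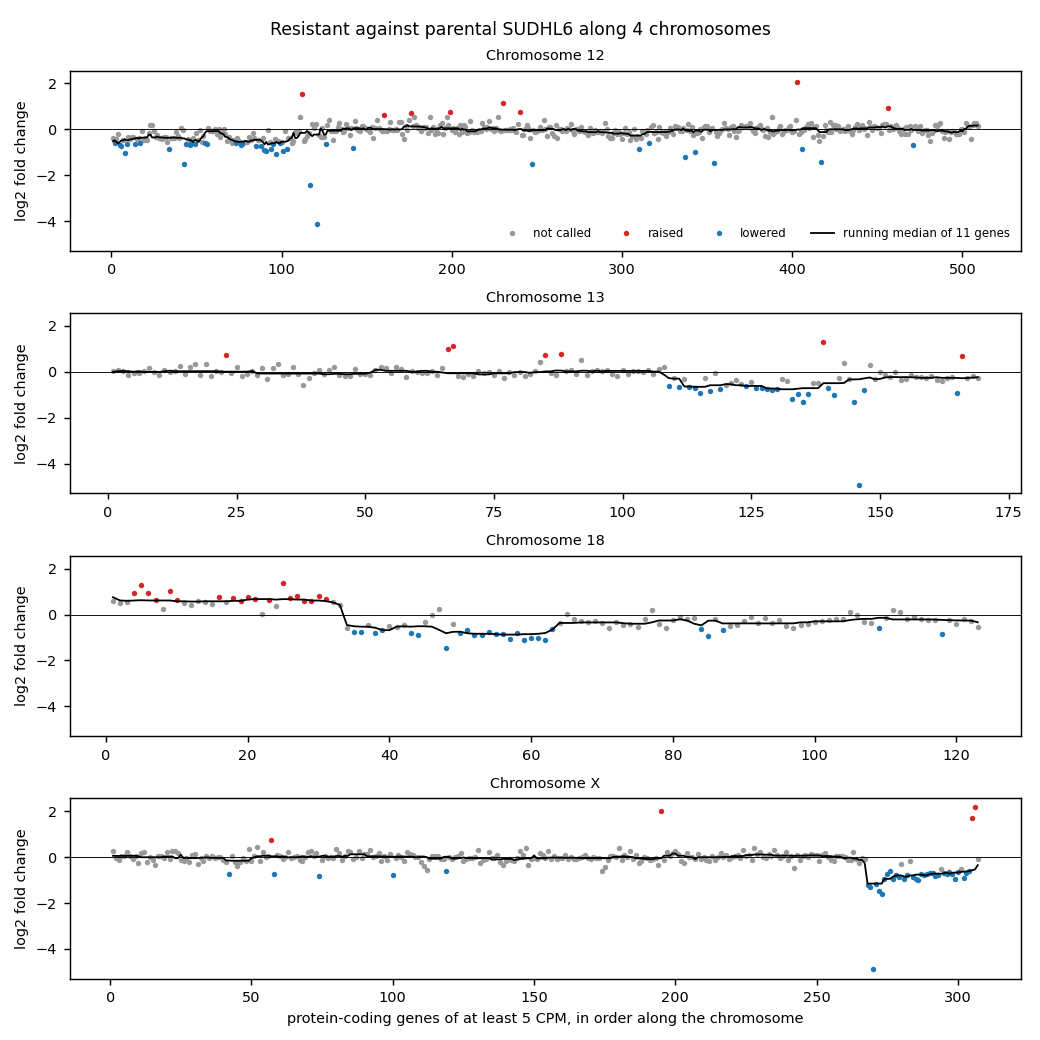
Log2 fold change, resistant against parental SUDHL6, of protein-coding genes averaging 5 CPM or more in their order along chromosomes 12, 13, 18 and X, each point a gene, grey where not called, red raised and blue lowered, with the running median of 11 genes as a black line. The line lies below 0 at the start of chromosome 12, in the last part of 13, on 18q and at the end of X, and above 0 on 18p.

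Lists described above drew unequally on these windows. None of the called BCL2 family, interferon or HLA class I genes lay in a shifted window, nor did SYK, CD83, IRF4, JCHAIN or PIM1. Of the 3 lowered members of the glycolysis list all did, as did 2 of the 10 called genes of the activated B-cell and plasma cell list (SSR4 and CCND2). So did 1 of 8 of the NF-κB list (IKBKG) and 1 of 5 of the endoplasmic reticulum list (DNAJC3).

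In SUDHL16, 503 of 15708 genes (3.2%) were raised and 330 (2.1%) lowered by the same rule. These libraries were made with another kit, sequenced on another instrument and less deep, at 4131927 to 22068221 reads, and their coefficient of variation was 0.468. The parental library CE-26 stood apart, with the lowest total and 55.4% of its reads on protein-coding genes against 84.3% to 90.2% in the other five. Of the 718 genes raised in SUDHL6, 515 were tested in SUDHL16 and 37 were raised there, which is 5.15% of the SUDHL6 calls, untested genes included, and 7.36% of the SUDHL16 calls, and 26 were lowered there. Of the 775 lowered genes 537 were tested and 27 were lowered in SUDHL16 (3.48% and 8.18%) and 41 raised. Of the 24 leading genes 16 were tested in SUDHL16, where OAS2 was raised (3.47) and NCF4 lowered (−1.03, adjusted p = 0.0489) and none was called in the opposite direction. The difference between the lines, tested as the interaction of line and resistance with edgeR over the 12 libraries, passed an adjusted p of 0.05 in 1404 of 19621 genes (7.16%) and in 13 of the 24 leading genes. Without CE-26 it passed in 2930 genes. The leading genes were chosen for their large change in the same SUDHL6 libraries, so the choice favoured a difference in them. Among the 13 leading genes that passed, the difference was largest in ZBTB38, SLC2A5 and ZNF275. For ZNF275 the change in SUDHL16 was −0.12 (adjusted p = 0.852). For GRAMD1B the SUDHL16 value was 4.76 and not called (adjusted p = 0.141), and the difference from SUDHL6 did not pass (adjusted p = 0.834).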

How the data were processed

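RNA of parental and resistant SUDHL6 cells was sequenced in 3 libraries per group. The submitters' processing notes name Trim Galore, HISAT2, StringTie, edgeR and GRCh38, and the authors deposited whole-number counts per Ensembl gene, 1 library per file, without normalization. The counting tool, annotation and strand setting are not given in the sources used here, so overlapping genes and near-identical copies may share reads. Of 60675 identifiers, 56558 were matched to GENCODE release 44. Groups came from the cell line label. No 2 libraries were identical.

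The 6 SUDHL6 libraries were fitted alone with edgeR 4.0.16 in R 4.3.3, after filterByExpr and TMM scaling. CPM are on that scale, and a standard error is the log2 fold change divided by the square root of the test statistic. Alternatives were DESeq2 1.42.0, limma voom 3.58.1 with quality weights, upper-quartile scaling, library totals, no filter, the edgeR exact test, glmTreat, protein-coding genes only, all 12 libraries in one fit, and each library left out. The test was tested on simulated counts with 200 changed genes. Tables and figures used Python 3.11.15, pandas 2.3.3, numpy 2.4.6 and matplotlib 3.10.9.

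The lists, 41 written from general knowledge, and the genes were chosen with earlier results of these data known, and 2 list symbols were not found. Named genes were the 12 most raised and 12 most lowered called protein-coding genes with at least 5 CPM and no overlap, the 3 raised and 3 lowered members of each list with the smallest p, the BCL2 family, the cell type markers, the 5 largest differences in CPM each way, genes at no more than 3 counts in one group, and the 4 most raised and lowered long non-coding RNAs. Genes named beyond these, as list members without values, at the edges of stretches or with their neighbours, were chosen after their values were seen. Some genes are not reported here.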

Additional observations from a re-analysis of the deposited data

Results flagged for a closer look

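In 13 of the 24 leading genes the change in SUDHL16 differed from that in SUDHL6 by the interaction test of edgeR over all 12 libraries, and each value below is the log2 change in SUDHL16 minus that in SUDHL6. The 24 were chosen for their large change in the same SUDHL6 libraries, which favoured such a difference. Among genes raised in SUDHL6, the difference was −2.59 in GCA, −2.15 in PLEKHA4, −1.95 in VAMP7, −1.33 in SCCPDH and −2.87 in RBM41, none of which was called in SUDHL16. In OAS2, which was raised in both lines, it was 1.5.

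Among genes lowered in SUDHL6, the difference was 4.78 in ZNF275, 5.96 in ZBTB38, 4.99 in SLC2A5, 2.25 in RASSF6, 2.62 in TRIB1 and 2.89 in TOX, none of them called in SUDHL16. In NCF4, which was lowered in both lines, it was 1.48. SUDHL16 was sequenced with another kit and instrument, so the line and the way its libraries were made cannot be told apart.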

How the results depend on the processing

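The counts of 718 raised and 775 lowered genes fell to 59 and 81 in one fit of all 12 libraries, where 1114 genes had an unadjusted p under 0.05, and to 246 and 342 with glmTreat against 1.5-fold. With a SUDHL6 library left out they ranged from 647 to 725 and from 700 to 748. DESeq2 called 626 and 681, and 1302 calls were shared with it. The count of 1404 genes that differed between the lines ranged from 830 to 2930 when a library was left out, 2930 without CE-26 and 850, 863, 856, 853, 830 and 839 without CE-7, CE-8, CE-9, CE-10, CE-11 and CE-12. The causes were not tested. Of 143 named genes called, 107 lost the call in the fit of 12 libraries, 39 with glmTreat and 4 with DESeq2, and 0 reversed under the alternatives run. CD40, SKI, SMAD4, TIGAR and APOBEC3G, all near 1.5-fold, were among those that lost it when single libraries were left out. Of 738 counts of called list members under other scalings, DESeq2 or a library left out, 46 moved by over 1.5 times, by at most 3 genes. Another scaling moved the median of all genes by at most 0.017. No paired analysis was possible because the labels give no replicate numbers. Depth limits genes under 1 CPM, which made up 25.1% of the calls.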
